A study of Homo sapiens with 4 samples.

Results

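NEAT1, MALAT1 and 7 genes of paraspeckle proteins (SFPQ, NONO, PSPC1, RBM14, HNRNPK, CPSF6 and NUDT21) were followed in 2 human cancer cell lines given the microRNA miR-891b. The members were the gene probes whose name in the scanner files equalled 1 of these 9 symbols, which gave 22 probes among 58201, and 9 gene names among 43317. HCT116, a colorectal cancer line, and A549, a lung cancer line, were transfected with miR-891b or with the negative control RNA NC1, in each case with the reagent Dharmafect1. For each array 100 ng of total RNA was labelled with the dye Cy3 for a 1-colour Agilent design, and the 4 groups, NC1 or miR-891b in either line, had 1 array each. The dose and the time after transfection are not given in the sources used here, and each line is represented by 1 sample per treatment. The 9 genes were chosen by their measured levels and changes on these same arrays, so the values below are a description of these 4 arrays and carry no test. A p-value cannot be had within a line with 1 array per group.

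NEAT1 is a long non-coding RNA that builds the paraspeckle, a body in the cell nucleus. Its short form ends early at a polyadenylation site, and its long form reads through that site and serves as the scaffold on which paraspeckle proteins gather. MALAT1 is transcribed from the neighbouring gene and collects in nuclear speckles, where splicing factors are stored. SFPQ, NONO and PSPC1 are the 3 members of the DBHS family of RNA-binding proteins, which form dimers with each other, and SFPQ and NONO are needed for paraspeckles to form. RBM14 joins paraspeckle proteins through a prion-like domain. NUDT21 and CPSF6 are subunits of cleavage factor I, which favours use of the early polyadenylation site of NEAT1, and HNRNPK counters that factor and so favours the long form.

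The probes of both RNAs are shown because their place in the transcript decides which form of NEAT1 they can detect. They are named by the base of the transcript at which each begins, per the files, and are written 5′ to 3′ as in the files. The first 2 NEAT1 probes overlap, and capitals mark the 19 bases that they share, so they are not independent readings.
NEAT1 1899: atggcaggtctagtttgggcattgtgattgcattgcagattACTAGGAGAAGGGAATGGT
NEAT1 1940: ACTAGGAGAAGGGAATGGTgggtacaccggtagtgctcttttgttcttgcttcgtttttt
NEAT1 3616: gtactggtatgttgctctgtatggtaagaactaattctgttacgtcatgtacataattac
MALAT1 3386: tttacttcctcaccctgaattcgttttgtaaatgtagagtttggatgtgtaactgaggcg
MALAT1 5747: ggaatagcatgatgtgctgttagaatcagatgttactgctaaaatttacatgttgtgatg
MALAT1 8481: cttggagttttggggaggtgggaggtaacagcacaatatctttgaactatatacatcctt
MALAT1 8638: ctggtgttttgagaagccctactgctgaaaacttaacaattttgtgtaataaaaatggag

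On hg19, the build of the files, the NEAT1 probes lie on the plus strand at chr11:65192168-65192227, chr11:65192209-65192268 and chr11:65193885-65193944. Subtracting each probe's place in the transcript from its coordinate gave the same transcript start, 65190269, for all 3, so no intron lies between the 3 probes. The 4 MALAT1 probes lie on the same strand at chr11:65268619-65268678, chr11:65270980-65271039, chr11:65273714-65273773 and chr11:65273871-65273930, and gave 1 shared start at 65265233.

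All 22 member probes were well above background on all 4 arrays by the mark that the scanner software sets, and no gene spot was saturated. Levels are log2 processed signals relative to the 75th percentile of the array, which lay between 54.9 and 74.8 signal units, and changes are miR-891b minus NC1. Over probes with at least 5 repeated spots the log2 change had a median SD of 0.061 in HCT116 (276 probes) and 0.071 in A549 (287 probes), which covers the spots and not the cultures or the labelling. Both arrays of a line shared a slide and a scan, so slide and line cannot be told apart. One member spot, of the second NONO probe, lay in a stray-signal area with miR-891b in HCT116. There, of the nearby spots that were dim on every other array, 18.5% gave signal above background. The lines bore out their names on the NC1 arrays at EPCAM, CDX2, CLDN7 and CLDN3, lower in A549 (-6.75 to -3.13), less so at CDH1 (-0.24), and at 6 of 6 A549 markers, higher there. With miR-891b, 4 of 5 HCT116 markers were lower in HCT116 (median -0.79) and 3 of 5 in A549 (median -0.36, with CLDN3 at 1.03). Of the A549 markers, 4 of 6 were measured in HCT116, where ALDH3A1, NQO1 and KRT81 were lower (-0.51 to -0.28) and AKR1B10 was 4.47 higher, while all 6 were lower in A549 (median -0.60), with ALDH3A1 at -1.17 and KRT81 at -1.64. Of 10 fibroblast markers, COL1A2, COL3A1, DCN, FAP and POSTN were not well above background on any array. PDGFRA was well above background only on A549 miR-891b, at -3.68 against -5.05 with NC1, and so was not measured in either line. Measured in HCT116 were COL1A1 (-0.60) and PDGFRB (0.48), and in A549 COL1A1 (-0.59), PDGFRB (-0.04), LUM (2.14) and THY1 (-1.04). Among the markers, the spots of CDH1 (up to 12.4%), ALDH3A1 (18.7%), KRT81 (19.1%) and POSTN (20.6%) also lay in a stray-signal area on an array. The part of these marker differences in the member values was not tested.

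NEAT1 was higher with miR-891b in both lines and at all 3 of its probes. The probe at base 3616, which has the highest mean of the 3 and stands for the gene, read 5.57 (NC1) and 6.49 (miR-891b) in HCT116, and 6.06 (NC1) and 7.48 (miR-891b) in A549. In unscaled signal these readings were 2611, 5115, 4985 and 13222. The miR-891b array was the higher of its pair in both lines, and the highest of all was A549 miR-891b. The change was 0.92 in HCT116, or 1.89-fold, and 1.42 in A549, or 2.67-fold. Both exceeded the spread between spots many times over. In RNA of a whole culture, more cells with NEAT1 and more NEAT1 per cell cannot be told apart. Of the genes measured in each line, 98.6% had a lower change than NEAT1 in HCT116 and 98.4% in A549.

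The overlapping probes further upstream showed a larger difference. The probe at base 1899 read 1.06 (NC1) and 2.33 (miR-891b) in HCT116, and 0.87 (NC1) and 2.97 (miR-891b) in A549. Its changes were 1.27 in HCT116 (2.41-fold) and 2.10 in A549 (4.29-fold), and the probe at base 1940 gave 1.24 and 2.04. Of the 22 member probes, these 2 were the ones at least 2-fold higher in HCT116 and with base 3616 they were the 3 at least 2-fold higher in A549. Of the 23212 probes with signal well above background on each of the 4 arrays, 1.07% were at least 2-fold higher in HCT116, 3.19% in A549 and 0.177% in both. The order of the arrays was not the same at the probes: on the NC1 arrays A549 exceeded HCT116 by 0.49 at base 3616, whereas the differences were -0.20 at base 1899 and -0.35 at base 1940. In both lines the change was smaller at the brighter probe, and whether its brightness had a part in that was not tested.

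**Figure D1:**
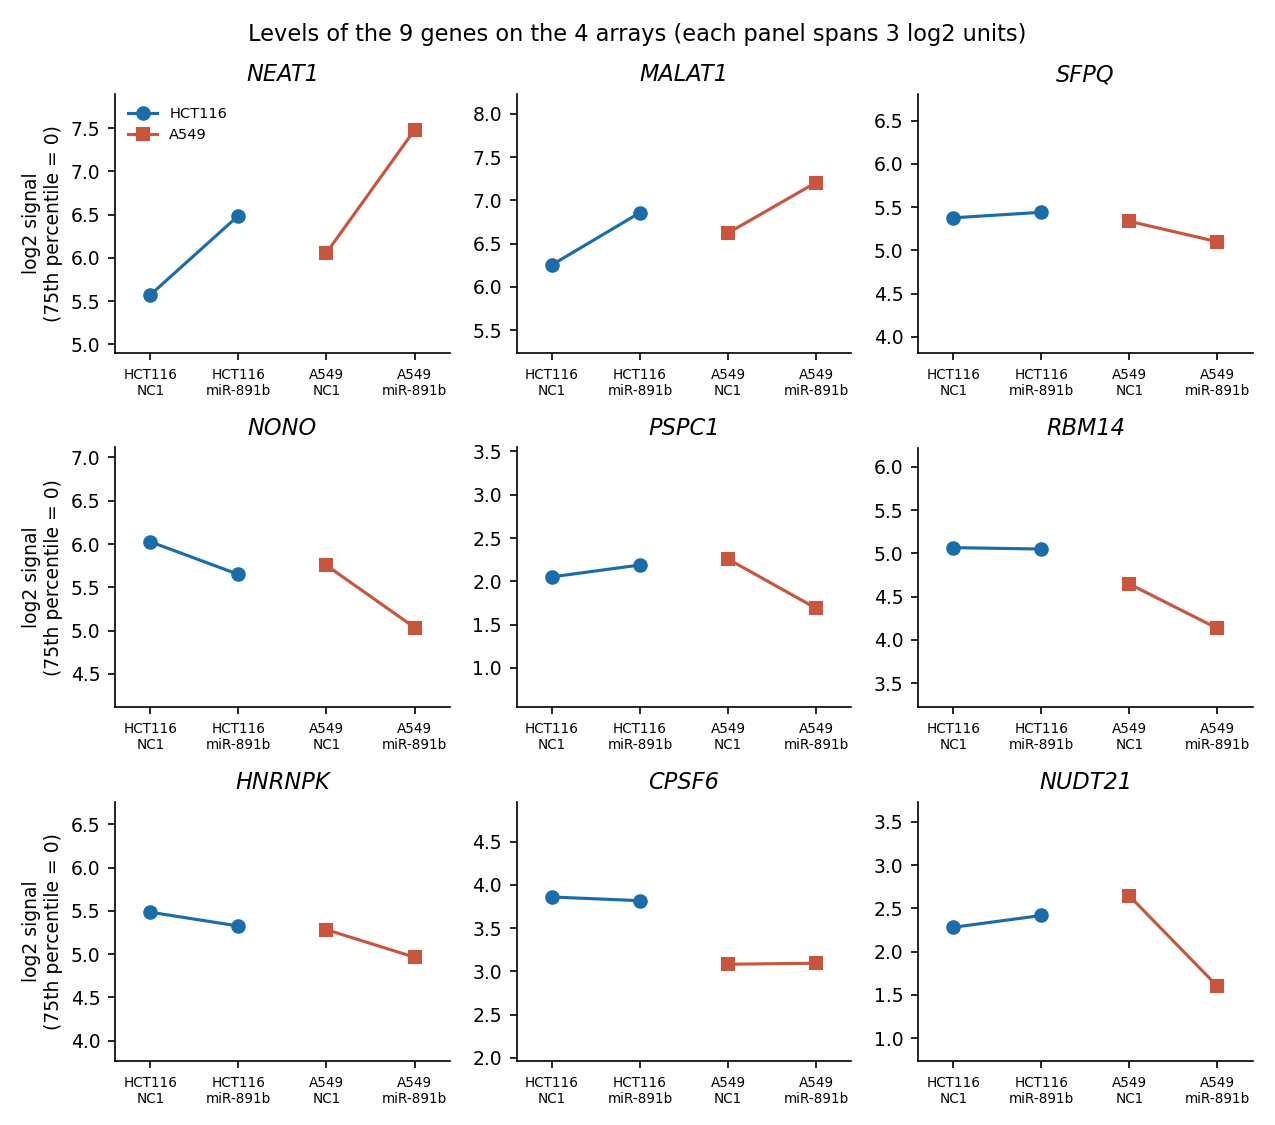
Log2 signal (75th percentile of each array set to 0) of the 9 genes, each by its probe with the highest mean, on the 4 arrays; 1 point is 1 array, lines join the arrays of a cell line, and every panel spans 3 log2 units. NEAT1 and MALAT1 were higher with miR-891b in both lines, while NUDT21 stood in A549 at 2.64 with the control and at 1.60 with the microRNA.

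Other probes of the locus, found by position and not by name, read further parts of NEAT1. The probe of the transcript ENST00000501122 begins at base 3854 from the same start, at chr11:65194123-65194182, a short way past the last NEAT1 probe. In A549 it stood at -2.99 (NC1) and -2.15 (miR-891b), which is a difference of 0.84. In HCT116 it was not well above background with NC1 (-4.64) and was with miR-891b (-2.78), which makes it at least 1.71-fold higher, where the bound is the dimmest signal that the NC1 array marks as well above background.

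The probe named MIR612 tells of the long form alone, since MIR612 lies within the NEAT1 gene in the RefSeq table of GRCh38.p14, near its far end. It lies at chr11:65211969-65212028 on hg19, 21700 bases downstream of the NEAT1 transcript start and on the same strand, and its sequence is given for comparison with the upstream probes.
MIR612 probe: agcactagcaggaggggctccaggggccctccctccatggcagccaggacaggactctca
This probe read -1.74 (NC1) and -1.82 (miR-891b) in HCT116, and -1.46 (NC1) and -1.23 (miR-891b) in A549, well above background on each. Its changes of -0.08 in HCT116 and 0.23 in A549 were smaller than those of the probes named NEAT1, which ran from 0.92 to 1.27 in HCT116 and from 1.42 to 2.10 in A549, and than the A549 change of 0.84 at base 3854. These differences between probes of 1 locus have no replicate, and the MIR612 probe was dim, at 16.1 to 31.7 unscaled signal units. Whether the labelling read the far end of the long form as well as the upstream part was not tested. A difference in change between the short and the long form was therefore not established. Where the short form ends was not determined here, so the form read at base 3854 was not established. A probe named THC2576171 lies on the other strand within NEAT1, at chr11:65193413-65193472, and was higher by 0.64 in HCT116 and by 1.75 in A549.

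**Figure D2:**
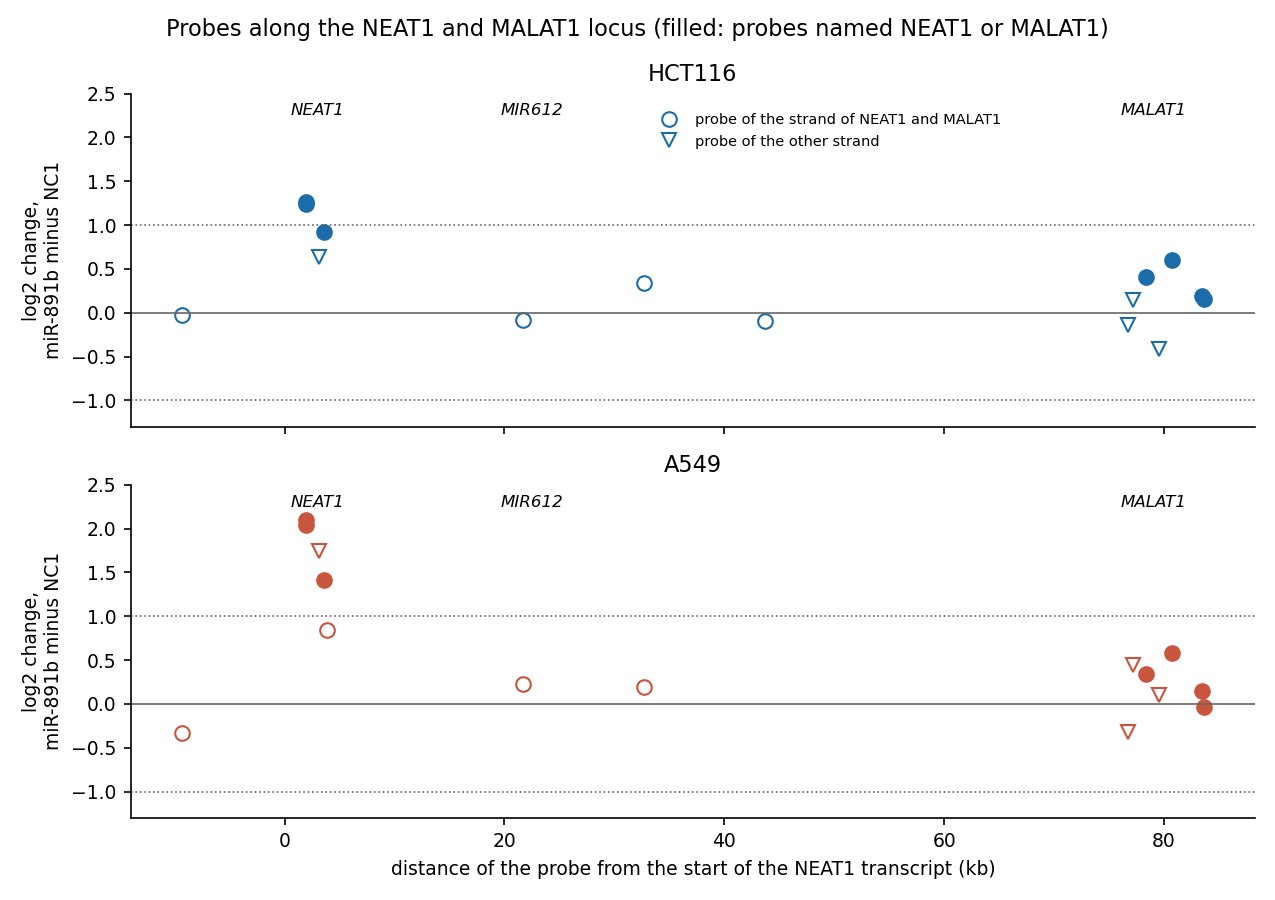
Log2 change (miR-891b minus NC1) of the probes between FRMD8 and the end of MALAT1 against their distance in kb from the start of the NEAT1 transcript, in HCT116 (upper) and A549 (lower), for probes well above background on both arrays of the line. Filled points are the NEAT1 and MALAT1 probes, open points other names, triangles the other strand; the NEAT1 probes lie from 0.92 to 2.10, and the MIR612 probe at -0.08 and 0.23.

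Other names around the locus were past 2-fold at about the share of all genes. Some of these names belong to probes within NEAT1 or MALAT1. Of 33 other names with a probe within 250000 bases of the NEAT1 or MALAT1 probes, 27 were measured in HCT116 and none was past 2-fold, and 28 were measured in A549, with 1 at least 2-fold lower and 1 higher. Over all genes measured, 0.843% were lower and 1.16% higher in HCT116, and 5.57% and 4.01% in A549. The lower gene was POLA2, a subunit of DNA polymerase alpha, at -1.23, and the higher was the THC2576171 probe within NEAT1. The POLA2 spot lay in a stray-signal area with miR-891b in HCT116. Not counted, because it was not well above background with NC1, was lnc-AP000769.1-1, a non-coding RNA probe on the NEAT1 strand 30451 bases past its start, which was at least 4.70-fold higher in A549 (-4.62 with NC1 and -1.72 with miR-891b). Their median change was -0.12 in HCT116 and 0.12 in A549, against medians of -0.041 and -0.059 over all genes measured. FRMD8, upstream of NEAT1, changed by -0.02 and -0.33.

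MALAT1 was higher with miR-891b at most of its probes, by less than NEAT1. The probe at base 5747, which stands for the gene, read 6.25 (NC1) and 6.86 (miR-891b) in HCT116, and 6.62 (NC1) and 7.21 (miR-891b) in A549. The changes of 0.60 in HCT116 (1.52-fold) and 0.58 in A549 (1.498-fold) were nearly the same and below the 2-fold mark. Of the genes measured, 96.4% had a lower change in HCT116 and 88.8% in A549. Values were smaller elsewhere in the transcript. The probe at base 3386 changed by 0.41 and 0.34, and the probe at base 8481 by 0.19 and 0.14. At base 8638, the probe nearest to the end of the transcript, the changes were 0.16 in HCT116 and -0.03 in A549, the second within the spread between spots. Probes of the other strand within MALAT1, where the antisense RNA TALAM1 is annotated in the RefSeq table, had changes between -0.41 and 0.14 in HCT116 and between -0.32 and 0.45 in A549.

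The DBHS genes did not follow NEAT1. SFPQ (probe at chr1:35649241-35649300) read 5.38 (NC1) and 5.44 (miR-891b) in HCT116, and 5.34 (NC1) and 5.10 (miR-891b) in A549. The change of 0.06 in HCT116 was the size of the spread between spots and that of -0.24 in A549 exceeded it, although the latter was -0.01 after quantile normalization, with or without normexp. A second SFPQ probe, of an Ensembl transcript, gave 0.20 and -0.23.

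NONO was lower with miR-891b in both lines. Its probe at chrX:70520608-70520667 read 6.03 (NC1) and 5.65 (miR-891b) in HCT116, and 5.75 (NC1) and 5.03 (miR-891b) in A549. The miR-891b array was the lower of its pair in each line, by changes of -0.38 (1.30-fold lower) and -0.72 (1.64-fold lower). The second probe, at chrX:70519825-70519884, changed by -0.37 in HCT116 and by -1.27 in A549, where it was 2.41-fold lower. With the first NUDT21 probe it made up the 2 member probes at least 2-fold lower in A549, against 5.79% of the probes well above background on every array. That probe is the one in the area of stray signal on HCT116 miR-891b, and its HCT116 change was close to that of the first probe.

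PSPC1 differed in direction between the lines. Its probe at chr13:20315706-20315765 read 2.05 (NC1) and 2.19 (miR-891b) in HCT116, and 2.26 (NC1) and 1.69 (miR-891b) in A549, which gave changes of 0.14 and -0.57. A second probe, at chr13:20276675-20276734, gave 0.14 and -0.43. Both probes thus gave the same directions, and no test of that difference was possible.

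**Figure D3:**
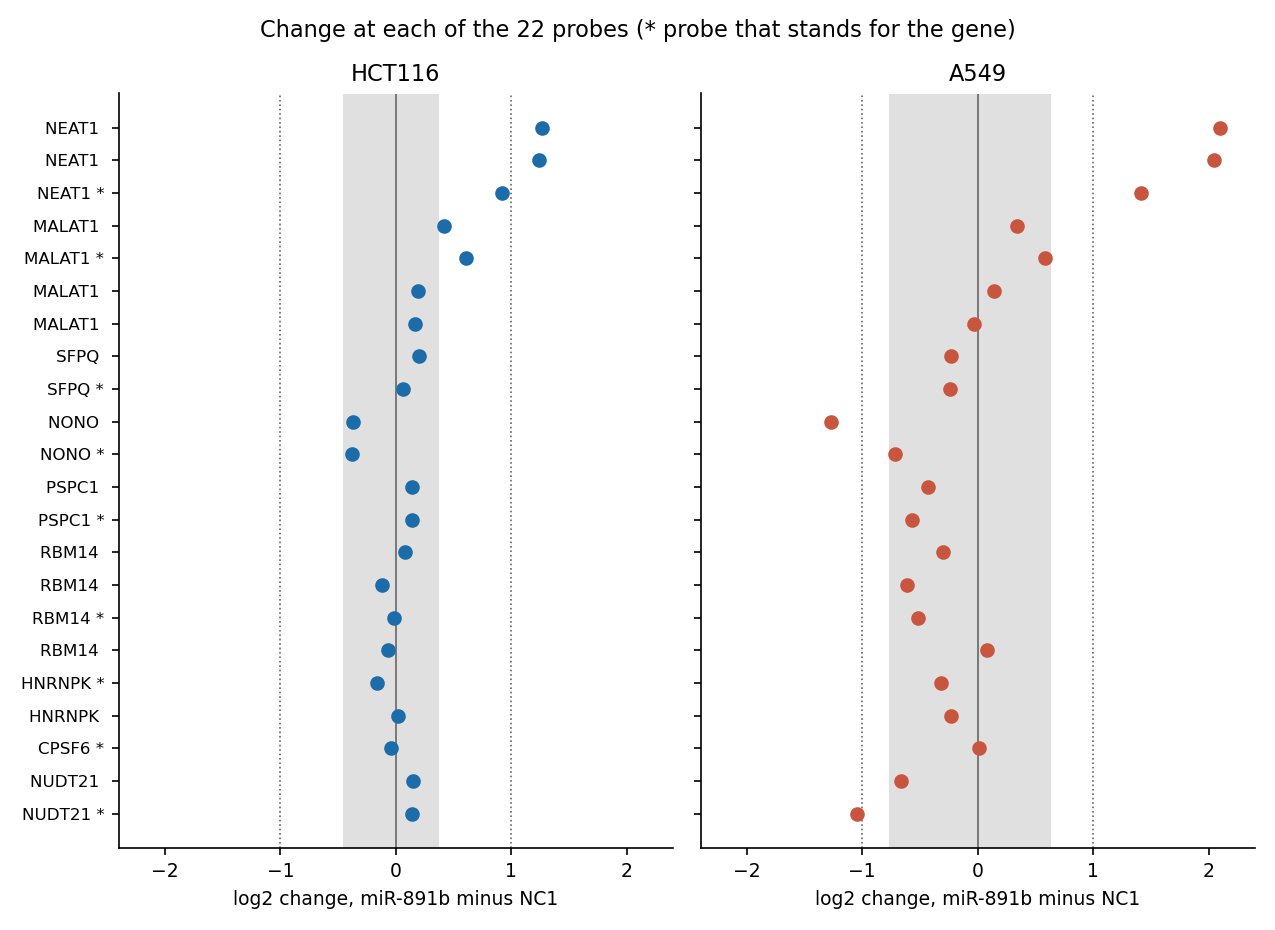
Log2 change (miR-891b minus NC1) at each of the 22 member probes in HCT116 (left) and A549 (right), in transcript or genome order within a gene; stars mark the probe that stands for the gene, dotted lines 2-fold, and the grey band the middle 80% of the changes of all genes measured. The NEAT1 probes lie to the right of the band in both lines, and in A549 13 of the 15 protein gene probes lie below 0.

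RBM14 was near level in HCT116 and lower in A549. The probe at chr11:66394693-66394752 read 5.07 (NC1) and 5.05 (miR-891b) in HCT116, and 4.64 (NC1) and 4.13 (miR-891b) in A549. The HCT116 change was -0.02, with the other sign under 3 of 8 alternatives, and the A549 change was -0.51 (1.43-fold lower). The other 3 RBM14 probes gave A549 changes of -0.61, -0.30 and 0.08, the last 2 of them at dim probes (-2.34 and -2.24 on A549 NC1).

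HNRNPK, which opposes cleavage factor I at NEAT1, read 5.48 (NC1) and 5.32 (miR-891b) in HCT116, and 5.28 (NC1) and 4.96 (miR-891b) in A549 at chr9:86583441-86583500. Its changes were -0.16 and -0.32. They were larger than the spread between spots but fell to -0.04 and -0.03 after normexp background correction with quantile normalization. A second probe gave 0.02 and -0.23.

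The cleavage factor I subunits differed from each other. CPSF6, measured by 1 probe at chr12:69656195-69656254, read 3.86 (NC1) and 3.82 (miR-891b) in HCT116, and 3.08 (NC1) and 3.10 (miR-891b) in A549. Neither its change of -0.04 in HCT116, whose sign turned under 2 of 8 alternatives, nor that of 0.01 in A549 exceeded the spread between spots. NUDT21 read 2.28 (NC1) and 2.42 (miR-891b) in HCT116, and 2.64 (NC1) and 1.60 (miR-891b) in A549 at chr16:56481744-56481803. The A549 miR-891b array was the lowest of the 4 and A549 NC1 the highest. The changes were 0.14 in HCT116 and -1.04 in A549, or 2.06-fold lower. The second NUDT21 probe, at chr16:56463526-56463585, gave 0.15 and -0.67. NUDT21 lay close to the 2-fold mark in A549 and fell short of it, narrowly, after quantile normalization, and under median scaling (-0.98), normexp with quantile normalization (-0.79) and the mean over both probes (-0.86).

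Counted at 2-fold by the probe that stands for each gene, 0 of 9 members were lower and 0 were higher in HCT116, against the 0.843% lower and 1.16% higher of 19105 genes measured. In A549, 1 member was lower (NUDT21) and 1 higher (NEAT1), against 5.57% and 4.01% of 21337 genes. The 7 protein genes had a median change of -0.02 in HCT116, with 4 below 0, and of -0.51 in A549, with 6 below 0. Over all genes measured, the medians were -0.041 and -0.059, and 55.5% and 55.6% of genes were below 0. For 6 of the 7 protein genes the A549 change was lower than the HCT116 change, with CPSF6 as the exception. The share of all genes with a lower change in A549 was not computed, so this count describes the members only. Changes of all genes were also wider in A549, with an SD of 0.61 against 0.38 in HCT116. The A549 signs of the 7 protein genes, and those of NEAT1 and MALAT1 in both lines, were the same under all 8 alternatives run. Some of these alternatives, such as leaving out the filter on dim probes, left the member values unchanged. After normexp with quantile normalization the A549 changes of SFPQ (-0.01) and HNRNPK (-0.03) were within the spread between spots.

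**Figure D4:**
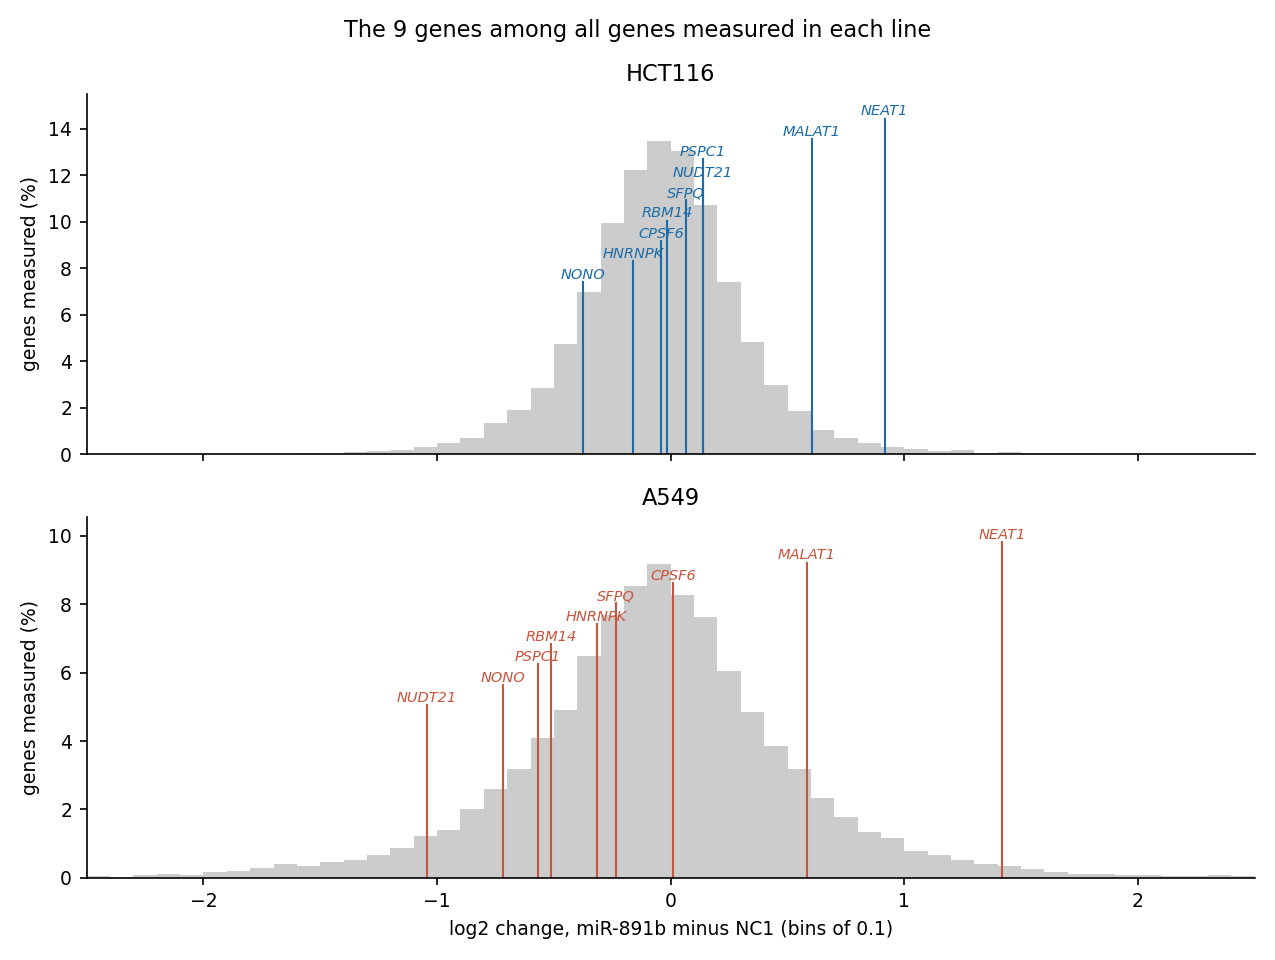
Share of genes (%) by log2 change (miR-891b minus NC1, bins of 0.1) over the 19105 genes measured in HCT116 and the 21337 in A549, with the 9 genes marked by lines whose height has no meaning. NEAT1 lies at 0.92 and 1.42, in the upper tail of both, and NUDT21 at 0.14 and -1.04.

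On the NC1 arrays no member differed by 2-fold between the lines by the probe that stands for it, against 16.6% of 18063 genes at least 2-fold lower and 10.9% at least 2-fold higher in A549. The A549 minus HCT116 difference ran from -0.78 for CPSF6 to 0.49 for NEAT1, and the SD over all genes was 1.20. Second probes could differ: NUDT21 stood at 0.36 by its first probe and at -1.08 by its second, and SFPQ at -0.04 and -0.999. With miR-891b the NEAT1 difference was 0.99 and the MALAT1 difference 0.35. RBM14, at -0.42 on the NC1 arrays, stood at -0.92 on the miR-891b arrays. These differences hold the line and the slide together.

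Other genes of the same bodies and processes were taken from lists of general knowledge. Of 30 other paraspeckle proteins, 29 were measured in HCT116 and 30 in A549, and none was past 2-fold in either line, against 0.843% lower and 1.16% higher over all genes in HCT116 and 5.57% and 4.01% in A549. Their medians were -0.09 and -0.15. The highest in both lines was SS18L1, a chromatin remodelling subunit, with 0.63 and 0.77, and the lowest in A549 was RBM12, an RNA-binding protein, with -0.82. HNRNPA1, a splicing regulator, changed by -0.17 and -0.70. None of the 26 nuclear speckle genes was past 2-fold, with medians of 0.04 and -0.15. The lowest of them in A549 was the splicing factor SRSF7, with -0.79 against -0.01 in HCT116, and SRSF5 stood at 0.25 and 0.43. The spots of SS18L1 (up to 11.2%) and SRSF5 (up to 20.5%) lay in a stray-signal area on an array. The genes named from the lists were picked for their values, POP5 because it passed 2-fold.

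Nor was any of the 19 measured genes of 3′ end processing past 2-fold. Their medians were -0.07 in HCT116 and -0.21 in A549, and 15 of 19 were below 0 in A549, against 55.6% of all genes. CPSF3, the nuclease that cuts at polyadenylation sites, changed by -0.14 and -0.79, and PAPOLA, the main nuclear poly(A) polymerase, by 0.19 and -0.77. They were the lowest of this list in A549, where the highest was PPP1CB (0.52, and 0.27 in HCT116). Of 14 measured genes that mature the ends of MALAT1 and long NEAT1, or bind there, 1 was at least 2-fold lower in A549, where 5.57% of all genes were. This was POP5, a protein of RNase P, with -1.26, and its spot lay in an area of stray signal on HCT116 miR-891b. METTL16, a methyltransferase that binds the triple helix at the MALAT1 end, changed by 0.17 and -0.91, and ELAC2, the RNase Z that trims the released small RNA, by 0.25 and 0.11. The medians of this list were 0.10 in HCT116 and -0.21 in A549.

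**Figure D5:**
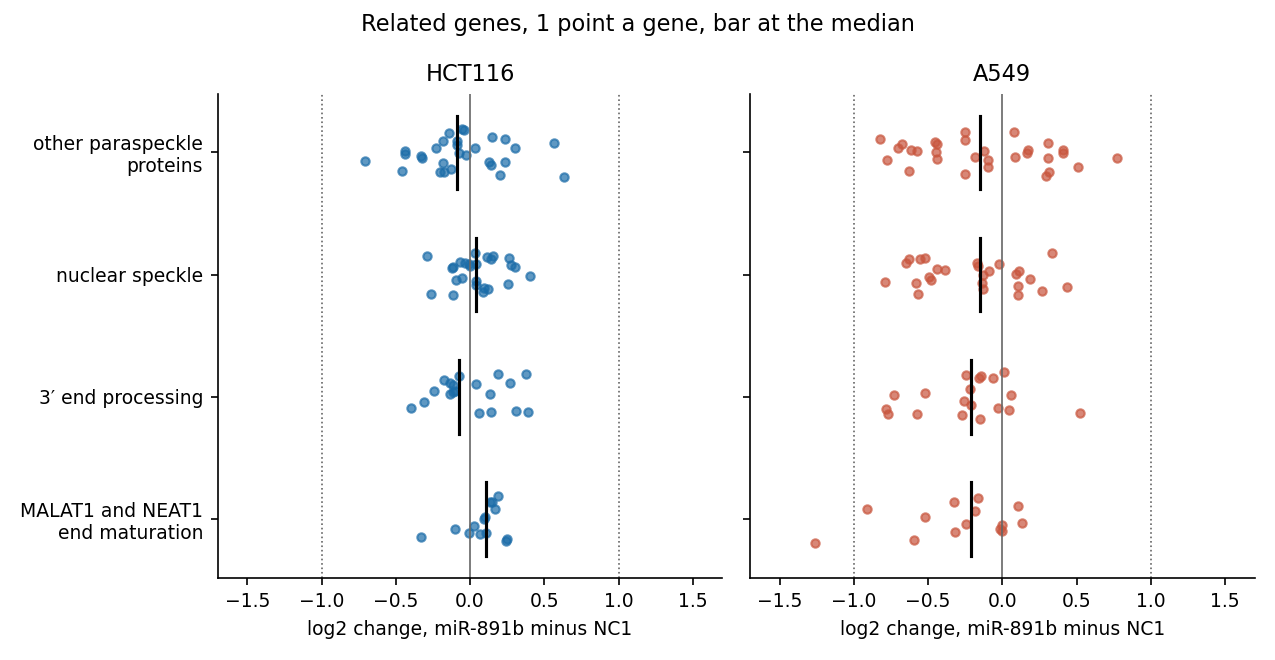
Log2 change (miR-891b minus NC1) of the measured genes of 4 lists in HCT116 (left) and A549 (right); 1 point is 1 gene, spread vertically for legibility, the black bar is the median and dotted lines mark 2-fold. Beyond the dotted lines lies 1 gene, POP5 at -1.26 in A549.

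The lines were the only replication of the transfection. A limma fit of line plus treatment over the 4 arrays gave 0 of 22711 genes (0%) with a Benjamini-Hochberg adjusted p under 0.05, with the smallest adjusted p from limma at 0.793, and 1214 genes at an unadjusted p under 0.05. Of the 4 lists, the other paraspeckle proteins held 1 gene lower and 1 higher at an unadjusted p under 0.05, and the others held none.

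Genes with a like pattern were sought by the Euclidean distance over the 4 log2 levels, each gene centred on its mean, among 12606 named genes well above background on all 4 arrays. The 5 nearest to NEAT1 were B4GALNT1 (distance 0.17), CYB5R1 (0.19), LRRC66 (0.27), SLC35F3 (0.28) and APOL2 (0.29). B4GALNT1, a glycosyltransferase of ganglioside synthesis, changed by 0.70 in HCT116 and 1.496 in A549. The 5 nearest to MALAT1 were SIRT4, SLC30A7, ACTRT3, FAM223A and JUN, at distances between 0.096 and 0.14. The 5 nearest to SFPQ were MAPK8, TCP1, ASH2L, AAGAB and ADAT2, at distances of 0.039 or less. With 4 arrays such a pattern has few degrees of freedom, and the likeness is a description.

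The transfected RNA is shown with its seed, bases 2 to 8, in capitals. The sequence is that of RefSeq, GRCh38.p14.
hsa-miR-891b: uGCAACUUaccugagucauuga
A microRNA lowers transcripts mainly through sites that pair with its seed. The letters AAGTTGC, which pair with the whole seed, were searched on the strand of the transcript in the 60-base probes and occurred in 0 of the 22 member probes and in 0.393% of all gene probes. The letters AGTTGCA, which pair with bases 2 to 7 and have an A opposite base 1, occurred in 1 member probe, of PSPC1, and in 0.364% of all gene probes. That match is shown with its surroundings, 30 bases of the probe at chr13:20315706-20315765, the match in capitals.
PSPC1 site: tcagaaaccaagAGTTGCAaaaacggaagc
At this probe PSPC1 changed by 0.14 in HCT116 and by -0.57 in A549. The probes sample a small part of each transcript, and sites elsewhere were not analysed here.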

How the data were processed

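RNA of HCT116 and A549 cells with NC1 or miR-891b was measured on 4 arrays, grouped by sample title, 1 per group. The labelling kit was Agilent's low-input kit, per the labels. The deposited scanner files hold linear intensity values. Per the file headers, Feature Extraction 11.5.1.1 made the processed signal by taking off background and a spatial trend, and coordinates are on hg19. The authors' deposited value table gives log2 values with no statement of how they were scaled. Set against the scale used here, they differed by a median of 0.0076 or less per array (column medians -3.80 and -3.60 for NC1 and miR-891b in HCT116, and -3.71 and -3.68 in A549), so that scale and centring were taken as theirs.

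Outlier spots were dropped, log2 processed signal was averaged per probe, and the 75th percentile over gene probes was subtracted. The probe with the highest mean stood for a gene. A gene was measured in a line if both its arrays marked that probe as well above background, and entered the model with at least 2 such arrays of 4. Stray signal was called where at least 10% of spots within 10 rows and columns, counted only if dim elsewhere, exceeded background. limma 3.58.1 in R 4.3.3 fitted the additive model. The fit was also run on simulated arrays with no line difference and the same planted change in both lines. That run does not show how the model performs on these arrays. Other values came from Python 3.11.15. Precision is limited by the number of arrays.

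The members and lists were chosen with earlier results of these data known. Besides members, genes were named where a neighbour or a gene of the 4 process lists passed 2-fold, and the 5 nearest by pattern, with cell type markers given as a check of the labels. Other list genes were picked for their values. RPP21 was not found on the array. RefSeq tables of GRCh38.p14 served for names (9 of 9 members matched) and for the microRNA sequence.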

Additional observations from a re-analysis of the deposited data

Results flagged for a closer look

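For 4 members the change had opposite signs in the lines. The share of all genes with opposite signs was not computed, so the count is not set against a background. In CPSF6 (-0.04 in HCT116 and 0.01 in A549) neither change exceeded the spread between spots, and the other 3 are given here. For NUDT21 and PSPC1 the change exceeded that spread in both lines, while the HCT116 change of SFPQ was about its size. The A549 change minus the HCT116 change was -1.18 for NUDT21 (0.14 in HCT116 and -1.04 in A549), -0.70 for PSPC1 (0.14 and -0.57) and -0.30 for SFPQ (0.06 and -0.24). Both probes of NUDT21, of PSPC1 and of SFPQ gave these signs. The difference was not tested, since each line has 1 array per group.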

How the results depend on the processing

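NEAT1 and MALAT1 were higher with miR-891b in both lines under all 8 alternatives to the processing. Leaving out the filter on dim probes, dropping areas of stray signal and keeping outlier spots left these values as they were. The authors' values are on the scale used here, so these alternatives say little about how firm the changes are. The NEAT1 change ran from 0.91 to 1.14 in HCT116, the highest being the mean over its probes, and in A549 it was 1.87 after normexp with quantile normalization, 1.79 after quantile normalization and 1.85 with the mean over probes. The MALAT1 change in HCT116 was 0.67 after quantile normalization and 0.34 with the mean over probes, and in A549 it was 1.01 after normexp with quantile normalization, 0.97 after quantile normalization and 0.26 with the mean over probes. The A549 median of the 7 protein genes was -0.35 under both quantile settings and -0.34 with the mean over probes. The count of members past 2-fold in HCT116 was 1 with the mean over probes and 2 at 1.5-fold. In A549 it was 1 after quantile normalization, after median scaling and with the mean over probes, and 0 at 3-fold. The cause of these shifts was not tested, beyond the other threshold or the other probes that enter.

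Over all genes, the numbers at least 2-fold lower and higher in HCT116 were 161 and 221. They were 13 and 27 after normexp with quantile normalization, 1434 and 2788 without the filter on dim probes, 678 and 1274 with the mean over probes, and 143 and 139 without areas of stray signal. In A549 they were 1189 and 855, against 418 and 344, 3081 and 2934, and 1626 and 1480 under the first 3 of these. Quantile normalization gave 187 and 187 in HCT116 and 1046 and 994 in A549, and median scaling 134 and 241, and 1023 and 1009, so the excess of lower genes in A549 nearly vanished under both. The additive limma model called 6 genes without the filter on dim probes and 0 under the other alternatives. The additive model pairs the arrays by line. No paired analysis by replicate number was possible because each group has 1 array.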
